A study of Rattus norvegicus with 8 samples.

Results

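Vgf, the granins and the enzymes and membrane proteins that mature and store secreted peptides were followed through induction of a mutant huntingtin fragment in rat PC12 cells. The group holds 10 genes: Vgf, Scg2, Scg3, Scg5, Chgb, Ptprn, Pam, Pcsk1, Pcsk2 and Cpe. It was set by name, and every probe set that the array's annotation assigns to 1 of these symbols alone was taken. This gave 17 of the array's 8799 probe sets, for 9 of the 10 genes. Pcsk1, the other main convertase of endocrine cells besides Pcsk2, had no such probe set and was not analysed here.

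The study compared 4 induced (+PA) and 4 uninduced (-PA) samples of the line Htt14A2.5, 1 array each. The line derives from PC12, a rat adrenal medullary tumour line, and stably carries a mutant human huntingtin exon 1 fragment, truncated and under inducible control, so the uninduced cells hold the same transgene without the inducer. The induced samples were treated with ponasterone (PA), the steroid inducer, for 48 h. The groups follow the sample titles, because the free-text descriptions speak of induction for all 8 samples. Cells with ponasterone but without the transgene were not analysed here, so effects of the steroid and of the fragment cannot be told apart. The labels name 1 line and leave unsaid if each replicate was its own culture, so p-values measure the spread between these samples, which may be technical.

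Neuroendocrine cells store peptides in dense-core granules and release them on demand. Precursors such as Vgf and the granins Chgb and Scg2 are sorted into these granules, where prohormone convertases (Pcsk1 and Pcsk2) cut them after basic residues, carboxypeptidase E (Cpe) trims the residues left at the ends, and Pam amidates peptide ends that finish in glycine. Scg3 helps hold granule cargo at the membrane, Scg5 is the chaperone and inhibitor of Pcsk2, and Ptprn is a membrane-spanning protein of the granule. Vgf is best known as a gene that nerve growth factor switches on in PC12 cells.

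Values are scaled signals deposited per probe set and array, and they rank the arrays for 1 probe set but not 1 probe set against another. Differences were taken as log2(signal + 7), induced minus uninduced, with limma over 6118 probe sets whose mean signal reached the 30th percentile (36.3), and a call needed a Benjamini-Hochberg adjusted p under 0.05. Signals carry the SD of 4 arrays, and log2 differences the standard error from the fit. Median signals of the arrays ran from 97.5 to 134.9, and the 95th percentile of 38 background control probe sets ran from 102 to 183. Induced replicate 4 stood apart on the first principal component (34.4, the next array at 12.6). The 3' to 5' log2 ratio of the beta-actin control was -0.67 on induced replicate 3 and 0.08 to 0.57 on the others. The Htt probe sets, which the annotation assigns to the rat gene, differed by 0.20 ± 0.28 and 0.20 ± 0.27 (limma adjusted p = 0.798 and 0.799). Their signals ran from 63.9 to 214.2, around the background percentile. They do not check the labels for the human fragment.

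The tissue label was read against 15 chromaffin markers fixed with the design, which was set with earlier results of these data known. Of the 15 markers, 11 had a probe set. Phox2a, Gata3, Hand2, Ret, Snap25 and Syp were above the background percentile on all 8 arrays, and the vesicular amine transporter Slc18a1 on 7. The catecholamine enzymes were near background: Th exceeded it on 1 array, and Dbh and Ddc, like the synaptotagmin Syt1, on 0. The summed chromaffin signal was 13086 to 13756 in uninduced and 10472 to 11190 in induced arrays. Bright probe sets dominate this sum, above all Phox2a (means 5765 uninduced and 3552 induced) and Syp (3409 and 2457). It is therefore no measure of the markers as a whole, and Th, Slc18a1, Hand2 and Snap25 were not called. Phox2a and Gata3, transcription factors of the sympathoadrenal lineage, and the vesicle protein Syp fell, and the receptor Ret rose (1 of 8 tested genes higher, 3 lower); Gata3 passed in 6 of the 8 fits without 1 array (adjusted p = 0.0557 without uninduced replicate 1 and 0.0552 without uninduced replicate 3). Of fibroblast markers 1 of 6 tested genes (Col1a1) was called higher, with summed signals of 6297 to 7882 uninduced and 6639 to 8055 induced. Of Schwann and glial markers 1 of 4 (Pmp22) was called higher, with sums of 802 to 1007 and 951 to 1099. Pmp22 and the brighter called Col1a1 probe set each passed in 4 of these 8 fits. Their adjusted p-values reached 0.0559 (induced replicate 1 left out) and 0.0837 (induced replicate 2 left out). The dimmer called Col1a1 probe set passed in 2 of the 8. The brightest Col1a1 probe set differed by 0.13 ± 0.21 and the next by 0.70 ± 0.21 (limma adjusted p = 0.838 and 0.0710), so neither was called. The dimmer Pmp22 probe set differed by -0.37 ± 0.49 and was above background on 0 arrays. Leukocyte markers (0 of 4 called) summed to 381 to 539 and 312 to 674, and adrenal cortex markers (0 of 1) to 166 to 306 and 113 to 262. Of the leukocyte markers Cd4 was above the background percentile on all 8 arrays, Ptprc on 2, and Cd8a, Lyz2, Itgam, Csf1r and Aif1 on 0. Of the cortex markers Cyp21a1 exceeded it on 1 array, and Star, Cyp11a1, Cyp11b2, Cyp17a1 and Nr5a1 on 0. The part of these shifts in the results below was not tested. In such bulk RNA, fewer cells with a transcript and less of it per cell cannot be told apart.

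Vgf, Pam, Ptprn and Scg3 rose after induction, by 6.67-fold, 1.93-fold, 1.47-fold and 1.49-fold, where the value of Pam is that of its brightest probe set. Vgf and this Pam probe set passed in all 19 alternative fits, Ptprn in 17 and Scg3 in only 11. Scg2, Chgb, Cpe and Scg5 were measured above background and were not called, and Pcsk2 was not above background. Of the 17 probe sets 13 passed the signal filter, for all 9 genes measured. Of these 13, 5 were called higher and 0 lower (6 had an unadjusted limma p under 0.05), where 4.10% of all tested probe sets were called higher and 2.97% lower. By gene, 4 of 9 had a probe set called higher, against 4.59% of the 3620 tested genes. The median log2 difference of the 13 was 0.35, and that of all tested probe sets was -0.05. In the same 5 probe sets, and in no other of the 13, the lowest induced array exceeded the highest uninduced one, a separation that 6.47% of all tested probe sets showed. With the filter dropped, the same count of 5 was called among the 17.

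**Figure D1:**
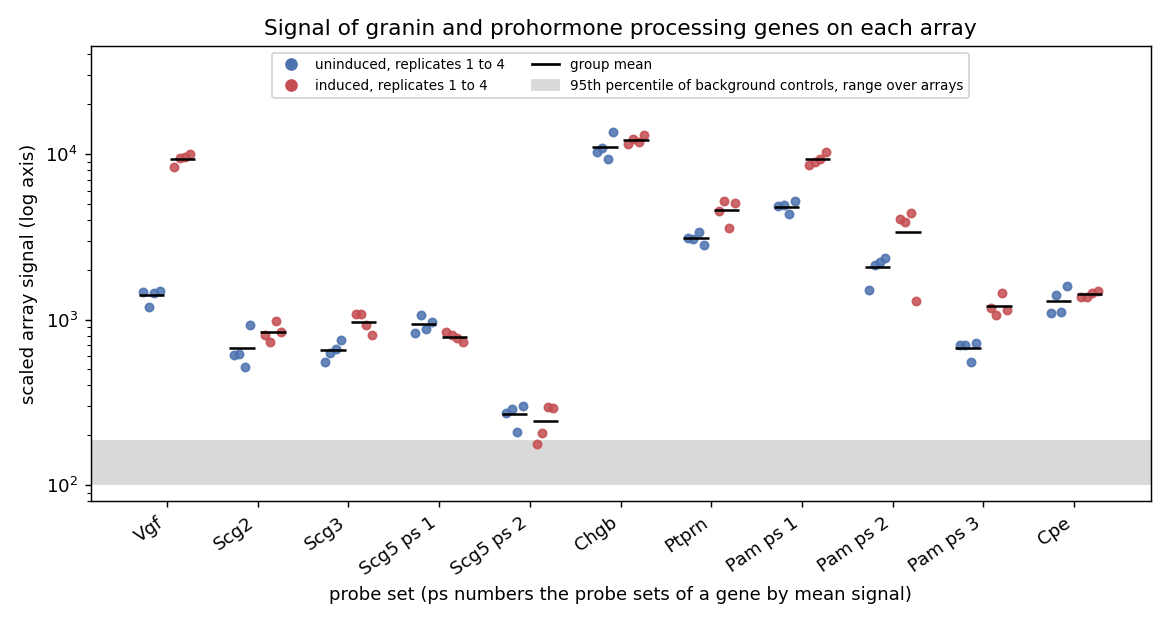
Scaled signal (log axis) of the 11 probe sets that were above the background percentile on all 8 arrays, with 1 point per array, blue for uninduced and red for induced, and a bar at the group mean; ps numbers the probe sets of a gene by mean signal. The 4 induced Vgf points lie between 8331 and 10044 and the uninduced ones between 1184 and 1489, while the points of Chgb, Cpe and Scg2 overlap between the groups.

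Vgf encodes a neurosecretory precursor that is cut into several bioactive peptides. Its signal was 1464.5, 1184, 1453 and 1489 on uninduced arrays 1 to 4 and 8331, 9402, 9620 and 10044 on induced arrays 1 to 4. The lowest induced array thus lay far above the highest uninduced one, and each group stayed within a narrow band. The group means were 1398 ± 143 and 9349 ± 729 (SD, n = 4 each). The log2 difference was 2.74 ± 0.10 (95% interval 2.52 to 2.96), with a limma adjusted p of 2.9e-08. It was the 6th largest rise among the 6118 tested probe sets. Leaving out 1 array moved it only between 2.66 and 2.79, and it passed in all 19 alternative fits.

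The rise of Vgf exceeded that of every other tested probe set in the group. Within each array, the log2 ratio of Vgf to the brightest Pam probe set ran from -2.04 to -1.57 without and from -0.05 to 0.07 with induction, a change of 1.79. The ratio of Vgf to Ptprn changed by 2.19, that to Scg3 by 2.17, that to Scg2 by 2.39 and that to Chgb by 2.58. In all 12 ratios of Vgf to another tested probe set the groups did not overlap. Each gave p = 0.0286 in a two-sided exact permutation test, the smallest that 4 against 4 arrays can give. All 12 share the same Vgf values, and no other member changed nearly as much. They therefore restate the rise of Vgf and are not 12 separate results.

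**Figure D2:**
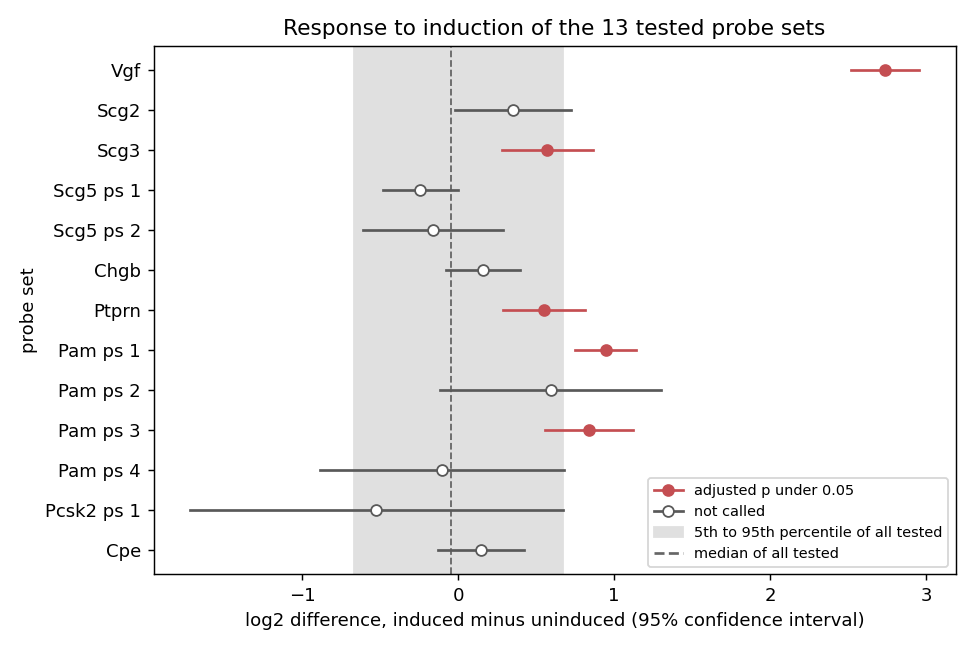
Log2 difference, induced minus uninduced, with its 95% confidence interval for the 13 tested probe sets; filled red points passed at an adjusted p under 0.05 and open points did not. The grey band spans the 5th to 95th percentile of all tested probe sets (-0.67 to 0.67) and the dashed line their median (-0.05). Vgf and Pam ps 1 and ps 3 lie to the right of the band, and Scg3 and Ptprn inside it.

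The other genes whose profile lay nearest to that of Vgf were picked by the smallest root mean square difference of mean-centred log2 values over the 8 arrays, among 5033 probe sets of other genes. They were Flnc, an actin crosslinker (0.18), Dusp1, a phosphatase of MAP kinases (0.19 and 0.28 for its probe sets), the zinc finger factor Egr1 (0.22) and Ifrd1 (0.29). Their log2 differences were 2.68 ± 0.11, 2.43 ± 0.15 and 2.29 ± 0.16, 2.46 ± 0.16 and 2.28 ± 0.18. The measure favours probe sets with a group difference near that of Vgf, so these values follow from the selection. The nearest other members of the group were the brightest Pam probe set (0.91) and the third brightest (0.97). The farthest was Pcsk2 (1.76), which was under the background percentile on every array.

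The starts of these genes were read because CREB sites near the start are a known feature of Vgf and of several granin genes. The cyclic AMP response element (CRE) is the octamer TGACGTCA, the site that CREB and related factors bind. RefSeq's windows of 250 bases before to 50 after each gene start (build GRCr8) held all 9 measured genes. The octamer occurred in 2 of them, Vgf and Scg2, and in 2.74% of 3216 windows of tested genes and 1.83% of all 33469 windows. The bases upstream of both starts are shown, written 5′ to 3′ along the gene, with the octamer in capitals, to let the promoter of the gene that rose most be compared with that of a granin that was not called.
Vgf (chr12:25277021-25277270, minus strand): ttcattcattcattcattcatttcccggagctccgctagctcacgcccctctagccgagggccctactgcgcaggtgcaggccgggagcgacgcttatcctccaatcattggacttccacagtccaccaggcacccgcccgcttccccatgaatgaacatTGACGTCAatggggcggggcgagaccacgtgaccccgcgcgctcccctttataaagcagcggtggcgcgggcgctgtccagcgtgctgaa
Scg2 (chr9:88256867-88257116, minus strand): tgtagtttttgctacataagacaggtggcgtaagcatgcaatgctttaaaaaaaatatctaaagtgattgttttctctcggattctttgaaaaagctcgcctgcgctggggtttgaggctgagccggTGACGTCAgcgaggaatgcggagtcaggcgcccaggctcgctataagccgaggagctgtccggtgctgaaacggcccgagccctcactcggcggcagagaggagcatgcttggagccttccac

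The octamer began 90 bases before the start of Vgf and 123 bases before that of Scg2. Vgf also held a CCAAT box on each strand, at 149 and 143 bases before the start, a TATA box (TATAAA) at 41 and an Egr motif (GCGNGGGCG) at 26. Scg2 held none of those, and the AP-1 motif (TGANTCA) was in 0 of the 9 windows and in 5.63% of the windows of tested genes. The letters TGACG, the CRE core contained in the octamer, were searched on both strands and were in 8 of the 9 windows, all but that of Chgb, and in 30.8% of the windows of tested genes. The 8 include genes that were called (Vgf, Pam, Ptprn, Scg3) and genes that were not (Scg2, Scg5, Pcsk2, Cpe). The 30 bases around the core are shown for the other called genes and for Cpe, with the core in capitals; CGTCA is the same core on the other strand.
Pam (chr9:105570250-105570279, plus strand): tccgaatgatgacTGACGcgggtctgcgcg
Ptprn (chr9:84204975-84205004, minus strand): tcttacgccagtaTGACGcaaataggccta
Ptprn (chr9:84204938-84204967, minus strand): ggggtggagatgtCGTCAttgcacgcctgc
Scg3 (chr8:85322537-85322566, minus strand): agcgctgggtcgcTGACGccatcctcacgc
Cpe (chr16:29796521-29796550, plus strand): gccatttggctttTGACGtgggtctgagcc

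**Figure D3:**
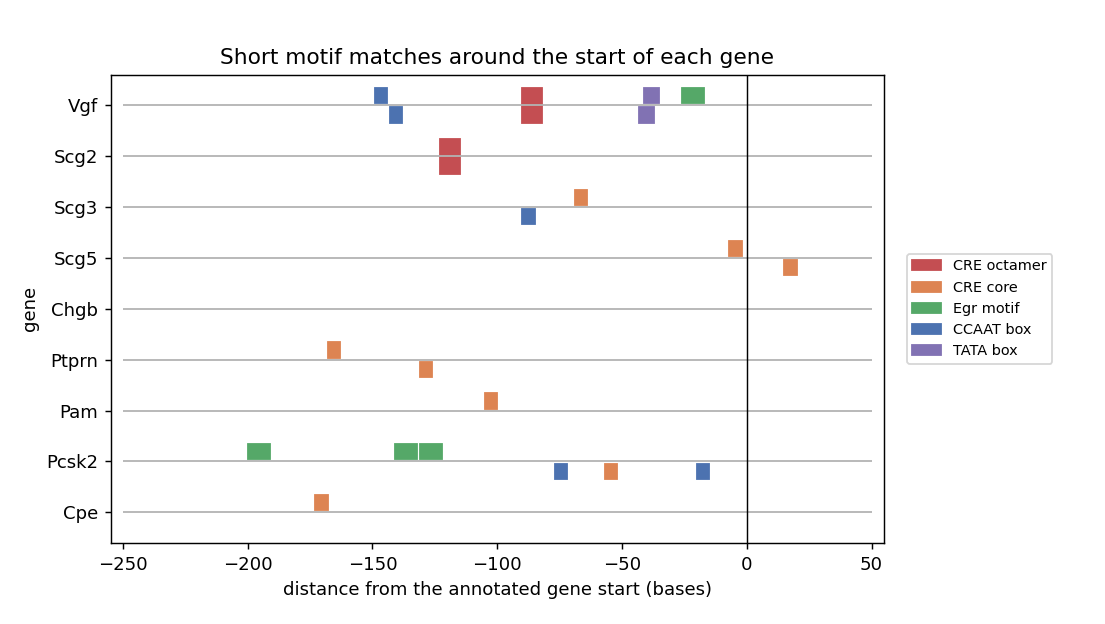
Position of short motif matches from 250 bases before to 50 bases after the annotated start of each of the 9 measured genes; boxes above the line lie on the gene's strand, boxes below it on the other, and the CRE octamer, which reads the same on both, spans both. Vgf and Scg2 carry the octamer, 6 further genes carry the CRE core and Chgb carries none of these motifs.

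These matches are letters in a window and say nothing of binding in these cells. Among genes with the octamer, Vgf rose 6.67-fold, and Scg2 was not called, with an interval from 0.99-fold to 1.65-fold. Any part of the octamer in either value was not tested. The Vgf to Scg2 ratio changed by 2.39 on the log2 scale, which mostly restates the rise of Vgf.

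Among the secretogranins, Scg3 (secretogranin III) was the one that passed. Its signal was 554, 628, 663 and 754.5 on the uninduced and 1077, 1075, 924 and 807 on the induced arrays. Induced replicate 4 was the lowest induced array and stood just above uninduced replicate 4, the highest uninduced one. Scg3 differed by 0.57 ± 0.13 on the log2 scale (95% interval 0.28 to 0.86, limma adjusted p = 0.0216). This call passed in 3 of the 8 fits without 1 array, and the adjusted p was 0.0699 without induced replicate 1, 0.0696 without induced replicate 2, and 0.0645, 0.0640 and 0.0524 without uninduced replicates 1, 2 and 3.

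Scg2, or secretogranin II, the precursor of secretoneurin, read 608.5, 621, 513 and 930 on the uninduced and 803, 734, 979 and 840 on the induced arrays. Uninduced replicate 4 lay above all induced arrays but replicate 3, and the other 3 uninduced arrays lay below every induced one. On the log2 scale the groups differed by 0.35 ± 0.17 (interval -0.02 to 0.73, adjusted p = 0.311). Without uninduced replicate 4 it was 0.52, with a limma adjusted p of 0.0424, the 1 alternative of 19 in which Scg2 passed. Leaving out uninduced replicate 3 instead took it down to 0.24 (adjusted p = 0.572).

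Chgb, or secretogranin I, read 10312, 10826.5, 9331 and 13494 on the uninduced and 11530, 12395, 11890 and 12966.5 on the induced arrays. Uninduced replicate 4 was the highest of all 8 arrays, and the groups overlapped. The log2 difference was 0.16 ± 0.11 (interval -0.08 to 0.40, adjusted p = 0.496), so a rise above 1.32-fold lay outside the interval. It passed in 0 of 19 alternatives. Without uninduced replicate 4 it was 0.27 with a limma adjusted p of 0.0912, and without uninduced replicate 3 it was 0.09 (0.775).

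Uninduced replicate 4 was the highest uninduced array in 10 of the 13 tested probe sets. The matching share of all tested probe sets was not computed. The median deviation of the 13 from the uninduced mean was 0.12 on this array, against 0.06 over all tested probe sets. Over all tested probe sets, too, this array had the highest median deviation of the uninduced arrays. It was the lowest uninduced array for Ptprn and for Pcsk2. The part of this array in the granin results was read only by leaving it out, as given for Scg2 and Chgb.

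**Figure D4:**
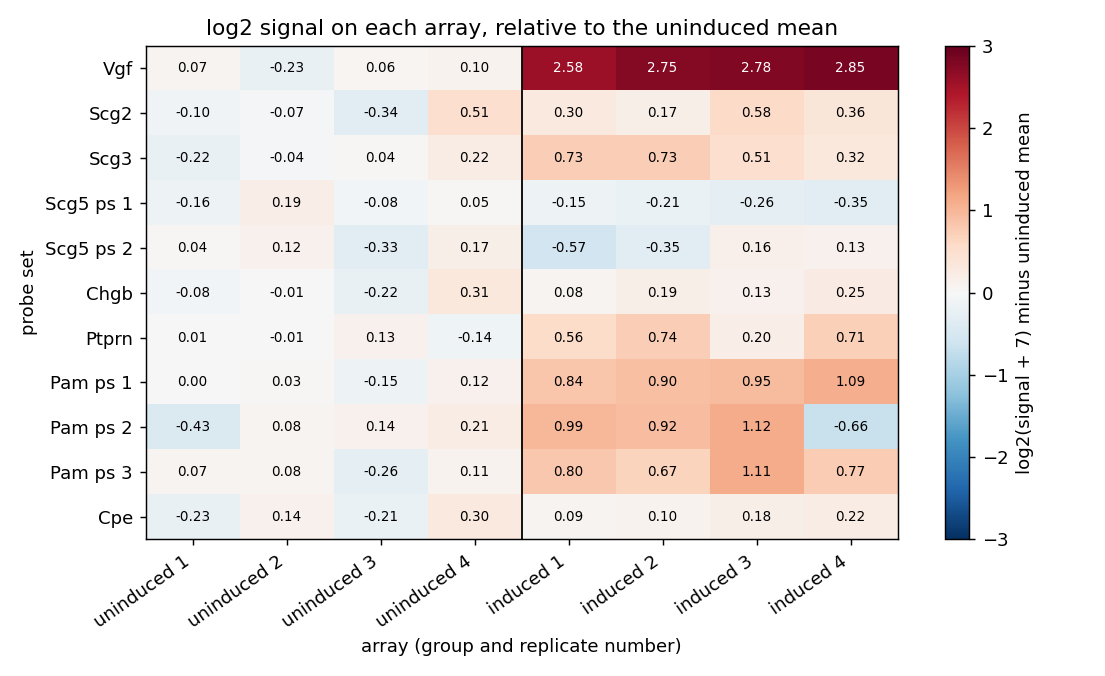
Log2(signal + 7) on each array minus the mean of the uninduced arrays for the 11 probe sets above background, with uninduced arrays left and induced arrays right of the line. The Vgf row is between 2.58 and 2.85 on the induced arrays, Pam ps 2 is at -0.66 on induced replicate 4 alone, and the Scg2, Chgb and Cpe rows have their highest uninduced value on replicate 4.

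Pam, the amidating enzyme, rose in 2 of its probe sets. The brightest of its 7 probe sets read 4823, 4901, 4325 and 5222 on the uninduced and 8601, 8975, 9297 and 10267 on the induced arrays. Every induced array lay above every uninduced one by a wide margin. This probe set differed by 0.95 ± 0.09 on the log2 scale (interval 0.75 to 1.14, limma adjusted p = 4.1e-05). The third brightest read 701, 704, 554 and 720 without and 1166, 1068, 1446 and 1143 with induction, again with no overlap, and differed by 0.84 ± 0.13 (adjusted p = 0.0015). Both passed in all 19 alternatives. They target the same gene and are not independent readings of it. The array names of both carry the suffix f, and that of the second brightest carries the suffix s. Whether their probes also match other transcripts was not examined. Taken as the mean of its 4 tested probe sets, Pam differed by 0.57 ± 0.11, or 1.48-fold (limma adjusted p = 0.0057). This mean includes the second brightest probe set, described next. It also includes the dimmest tested one, which differed by -0.10 ± 0.36 and was above background on 0 arrays.

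The Pam probe set of the second rank split from these on 1 array. It read 1508, 2145.5, 2236 and 2359 without induction and 4042.5, 3863, 4412 and 1286 with it, so that induced replicates 1 to 3 lay above, and induced replicate 4 below, all uninduced arrays. With all 8 arrays it differed by 0.59 ± 0.33 (interval -0.12 to 1.30, adjusted p = 0.385), and without induced replicate 4 by 1.01, with an adjusted p of 0.0018. On the same induced replicate 4 the brightest probe set had its highest value. The annotation used here does not give the stretch of the transcript that each probe set reads. Pam is known for several splice forms, and any part of them in this split was not tested. The 4 dimmest Pam probe sets stayed at or below 63.4 on every array, under the background percentile, and carry no measure of a response; the last 3 of them were left out by the filter.

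Cpe, the carboxypeptidase that follows the convertases, read 1098, 1414, 1110 and 1584 on the uninduced and 1366, 1374, 1455 and 1495 on the induced arrays. The induced values all fell inside the uninduced range. The log2 difference was 0.14 ± 0.13 (interval -0.13 to 0.42, adjusted p = 0.632), and it passed in 0 of 19 alternatives.

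Pcsk2, the convertase, was not well above background. Its brighter probe set read 23.7, 29.4, 128 and 22.9 on the uninduced and 21.0, 19.1, 34.6 and 27.6 on the induced arrays, under the background percentile on every array, and reached the signal filter through uninduced replicate 3 alone. Its log2 difference was -0.52 ± 0.55 with all arrays (adjusted p = 0.710) and -0.01 without uninduced replicate 3, so no direction can be read from it. Its other probe set was at or below 7.6 on every array and was left out by the filter.

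Scg5, the partner protein of Pcsk2, was measured above background by both of its probe sets. The brighter read 830, 1063, 879 and 959 on the uninduced and 838, 802, 772 and 729 on the induced arrays, with 3 induced arrays below all uninduced ones and induced replicate 1 just above the lowest of them. It differed by -0.24 ± 0.11 (interval -0.48 to -0.00, unadjusted p = 0.0489 and adjusted p = 0.274 in limma). The dimmer read 273, 289, 209 and 299 without and 176, 207, 297 and 290 with induction, which overlapped widely, and differed by -0.16 ± 0.21 (adjusted p = 0.779). Neither passed in any of 19 alternatives.

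Ptprn, the granule membrane protein also known as an autoantigen of type I diabetes, read 3121, 3073, 3392 and 2812 on the uninduced and 4554, 5180.5, 3557 and 5049 on the induced arrays. Induced replicate 3 was the lowest induced array and stood close above uninduced replicate 3, the highest uninduced one. The log2 difference was 0.55 ± 0.12 (interval 0.29 to 0.81, limma adjusted p = 0.0145). It passed in all 8 fits without 1 array, with a highest adjusted p of 0.0494 without induced replicate 2, and it was 0.67 without induced replicate 3. Without replicate 2 of both groups, which carry a differently worded source label, the adjusted p was 0.123.

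**Figure D5:**
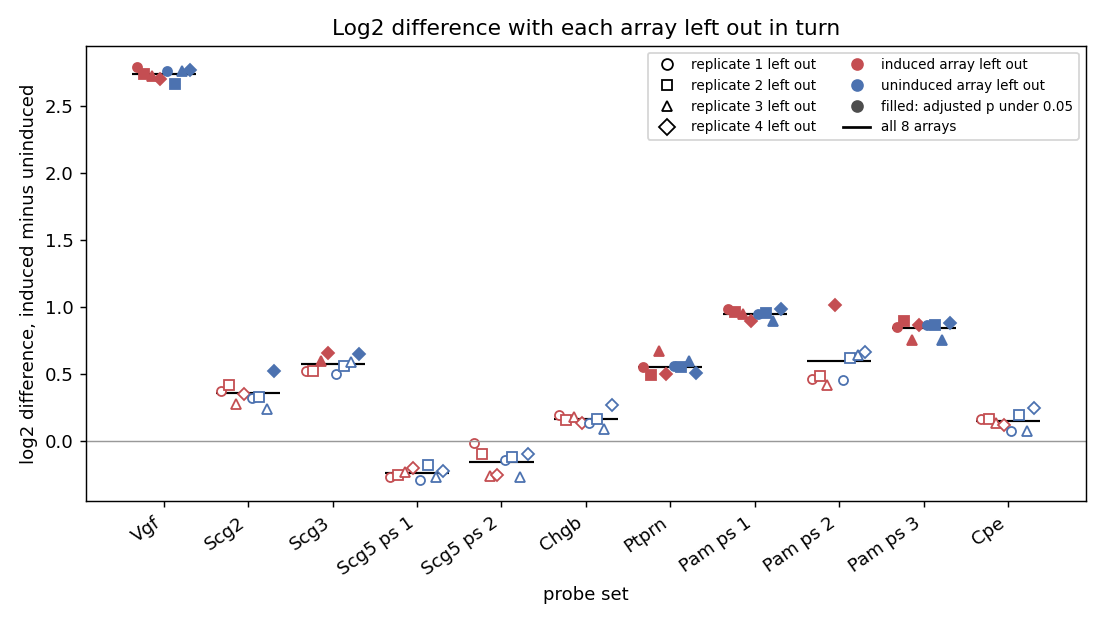
Log2 difference, induced minus uninduced, of the 11 probe sets above background with each of the 8 arrays left out in turn; red marks leave out an induced array, blue an uninduced one, the shape gives the replicate number, filled marks passed at an adjusted p under 0.05 and the black line is the value with all 8 arrays. Vgf, Ptprn and Pam ps 1 and ps 3 are filled throughout, Scg3 in 3 of 8, and Scg2 and Pam ps 2 in 1 each.

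Other genes of the regulated secretory pathway were read from 6 lists of 104 genes, of which 76 had a probe set and 56 passed the filter. Among these 56, 5 were called higher, 1 lower and 50 were not called, against 4.59% and 3.37% of all tested genes. The members named above were not counted in these lists.

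Of other granule proteins 1 of 9 tested was called higher and 0 lower, with a median log2 difference of 0.05. Syt4, a synaptotagmin found on dense-core granules, rose in both of its probe sets, from 391 ± 85.9 to 801 ± 220 (1.01 ± 0.20, limma adjusted p = 0.0081) and from 281 ± 18.9 to 733 ± 100.3 (1.36 ± 0.13, adjusted p = 6.1e-05). Cadps, which primes granules for release, differed by 0.41 ± 0.13 and was not called (adjusted p = 0.0885). The granule protein Ptprn2, the close relative of Ptprn, was above background on 0 arrays.

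Of other convertases and peptide-maturing enzymes 1 of 8 was called higher and 0 lower, with a median of 0.27. Ctsl, a lysosomal protease that also cuts some prohormones, rose from 1594 ± 188 to 3429 ± 176 (1.11 ± 0.10, limma adjusted p = 2.8e-05), while its dimmer probe set differed by 0.45 ± 0.13 (adjusted p = 0.0643). The general convertase Furin differed by 0.29 ± 0.19 and -0.16 ± 0.23 in its probe sets, and Cpd, a carboxypeptidase of the Golgi, by 0.25 ± 0.15; neither gene was called.

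Of peptidases that break down peptides 1 of 10 was called higher and 0 lower, with a median of -0.06. Ace, the angiotensin-converting enzyme, rose from 492 ± 37.5 to 734 ± 77.2 (0.57 ± 0.12, limma adjusted p = 0.0123; 0.0559 without replicate 2 of both groups). Nln, or neurolysin, differed by 0.35 ± 0.14 and was not called (adjusted p = 0.176).

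Of peptide precursors, the substrates of this machinery, 0 of 20 tested genes were called by limma, with a median of -0.02; Nmu (-0.48 ± 0.18) and Nppb (0.94 ± 0.41) had an unadjusted p under 0.05, with adjusted p-values of 0.164 and 0.250. Only 6 of the 28 precursor genes with a probe set exceeded the background percentile on all 8 arrays in any probe set: Pdyn, Pnoc, Adm, Nmu, Hcrt and Avp. Nppb exceeded it on 0.

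Of the V-ATPase, the proton pump that acidifies granules and lysosomes, 2 of 8 tested genes were called higher and 1 lower, with a median of 0.14. Atp6v1b2 fell from 9431 ± 1088 to 5327 ± 280 (-0.82 ± 0.09, limma adjusted p = 2.0e-04). Atp6v1f rose from 3784 ± 186 to 5104 ± 109 (0.43 ± 0.08, adjusted p = 0.0039). Atp6v0a1 rose from 2453 ± 299 to 3639 ± 536 (0.56 ± 0.13, adjusted p = 0.0157; 0.0981 without replicate 2 of both groups and 0.0847 without the intensity trend), and its other probe set differed by 0.55 ± 0.17 (adjusted p = 0.0938). Subunits of this pump thus moved in both directions. Of genes that supply the copper and ascorbate Pam needs, 1 was tested, the copper pump Atp7a, which differed by 0.27 ± 0.33 and was above background on 0 arrays.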

How the data were processed

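RNA of 8 samples was measured on 8 arrays. The authors deposited intensities, 1 scaled linear signal per probe set and array; 2% trimmed means of 500.8 to 500.9 on all arrays show a scaling to a common level, and the program is not given in the sources used here. No detection calls were used. Gene symbols came from the array's annotation table, and 7018 probe sets had 1 symbol. The 59 control probe sets and those with a mean signal under the 30th percentile were left out, and log2(signal + 7) was modelled on group with lmFit and trended eBayes (limma 3.58.1, R 4.3.3; 6 residual and 5.78 prior degrees of freedom), adjusted over 6118 probe sets; the fit was tested on simulated data. The number of arrays limits the precision. Folds are computed from fitted log2 differences. Promoters are RefSeq's (GRCr8).

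The genes and lists were chosen with earlier results of these data known, so they are no independent support. Named genes are every member probe set, called genes and the 2 with the lowest p of each pathway list, the 5 probe sets nearest to Vgf, and Htt; Furin, Ptprn2 and the marker genes were named after their values were seen. The alternatives were other added constants, a background floor, other filters, quantile normalization, median centring, no intensity trend, the replicate number as a block, and arrays left out.

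The labels leave unsaid if the replicate numbers in the titles pair the samples. Deviations from the group means of same-numbered arrays correlated at -0.14, 0.06, -0.09 and 0.19 over the tested probe sets. Those of differently numbered arrays ran from -0.21 to 0.20. No strong shared deviation by number was seen, but weak correlations cannot decide whether the samples were paired.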

Additional observations from a re-analysis of the deposited data

Results flagged for a closer look

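In 34 groups of 4 values (17 probe sets, each group), 4 had 1 array far from the other 3, with a gap to the nearest that made up more of the group's range on the log2 scale than Dixon's 95% critical value; chance alone gives about 1 in 20. Vgf read 1184.2 on uninduced replicate 2, with the other uninduced arrays from 1452.7, and the groups remained far apart. The second Pam probe set read 1286 on induced replicate 4, with the next induced array at 3863.2, and this array decides whether that probe set passes. The third Pam probe set read 553.8 on uninduced replicate 3, with the next at 701.2, and passed without that array too. The brighter Pcsk2 probe set read 127.6 on uninduced replicate 3, with the next at 29.4; leaving that array out took its difference from -0.52 to -0.01.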

How the results depend on the processing

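Over the 8 fits without 1 array, called member probe sets ranged from 4 to 6, member genes from 3 to 5, pathway list genes stayed at 6, and all called probe sets ranged from 313 to 411 (433 with all arrays). Without replicate 2 of both groups the counts were 3 member probe sets, 2 member genes and 221 probe sets in all, and without the intensity trend 3, 2 and 279. In both, Scg3 (adjusted p = 0.172 and 0.0721) and Ptprn (0.123 and 0.0821) were not called. With the replicate number as a block, Scg3 was not called (limma adjusted p = 0.0676), which left 4 member probe sets and 3 member genes. In that fit 369 probe sets passed in all. Whether the numbers pair the samples is not known. The other alternatives kept the counts at 5 member probe sets and 4 member genes, including 1 value per gene. No called member changed sign. Signals near background limit Pcsk2, 4 Pam probe sets and most peptide precursors.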
